A study of Mus musculus with 50 samples.

Results

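Cultured mouse developing oligodendrocytes, wild-type and Nrf2 -/- pooled, were compared by RNA-seq after 8 h with interferon-gamma (IFN-γ) and after 8 h without treatment. The comparison uses 10 of the 50 bulk RNA-seq libraries of the study, 5 from IFN-γ-treated and 5 from untreated cells, chosen by the treatment and hour in their labels. In each group of 5, 3 libraries are from Nrf2 -/- cells, which lack both copies of Nfe2l2 (the gene for NRF2, a transcription factor of the antioxidant response), and 2 are from wild-type cells. All cells are on the C57BL/6 background. Oligodendrocyte precursors had been purified by immunopanning from the cortices of 6-day-old pups, passaged 2 times and left to differentiate for 12 to 14 h, and the dose of IFN-γ was 200 U/ml. A tissue tag names whole brain where the protocol names cortex, and no label says whether replicates came from separate litters or cultures. The rest of the study covers IFN-γ and no treatment at 1, 24 and 48 h and thapsigargin, a blocker of the calcium pump of the endoplasmic reticulum, at 1 and 8 h, labelled as 200 µM.

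The 10 libraries held 32.3 M to 40.3 M gene counts each (M, mega). Values are given as CPM, the counts of a gene relative to the library total, with totals scaled by the trimmed mean of M-values. In each sentence of 5 values, Nrf2 -/- replicates 1, 2 and 3 come first and wild-type replicates 1 and 2 follow. Replicate numbers follow the order of the library numbers within a group and are not in the labels. Whether libraries of like number share a culture is not stated. Nfe2l2, the deleted gene, had 0.211, 0.221, 0.436, 19.6 and 16 CPM in IFN-γ libraries, against 0.212, 0.179, 7.75, 5.06 and 10 CPM in untreated libraries. The library labelled untreated Nrf2 -/- replicate 3 was thus at the wild-type level, and results that rest on it are given with and without it. Replicate 2 of both Nrf2 -/- groups carries the wild-type genotype in another field of its label, but its Nfe2l2 level was that of the other Nrf2 -/- libraries. Xist, transcribed from the inactive X chromosome, was high in Nrf2 -/- replicates 1 and 2 of both groups (raw CPM of 527.4 and 583.4 with IFN-γ, 525.3 and 541.9 untreated). It was at or under 4.93 in the other 6 libraries, so the sexes were balanced between the treatment groups. They were not balanced between genotypes, since all wild-type libraries were among those 6. AY036118, a long non-coding RNA that was chosen after its values were seen, took 169640.8 CPM in IFN-γ wild-type replicate 1 and 150526 CPM in IFN-γ Nrf2 -/- replicate 3, which no other library approached, and the 20 most abundant genes held 24.3% and 22.9% of the counts there against 10.1% to 13.1% in the other 8.

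IFN-γ signals through a receptor of IFNGR1 and IFNGR2 chains that carry the kinases JAK1 and JAK2. These phosphorylate transcription factors of the STAT family, whose dimers bind gamma-activated sites (GAS) and switch on a first set of genes, among them the transcription factors IRF1 and IRF8. IRF proteins, alone or with STAT proteins, then act through interferon-stimulated response elements (ISRE) on genes of antigen presentation, antiviral defence and cell-autonomous immunity. In the white matter the cytokine is known for inducing major histocompatibility complex (MHC) class I on oligodendrocytes and for injuring cells that are about to make myelin.

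Stretches of the promoters of 6 genes named below show the letters through which this pathway is known to act. They are RefSeq sequences on GRCm38.p6, each on the strand of its gene, with 20 bases on either side of the matches. Capitals mark each match to TTCNNNGAA, the core of a GAS, or to GAAA followed by any 2 bases and GAAA, the core of an ISRE, searched on both strands. Irf1 and Irf8 are shown for the GAS core, Socs1, Ifit1 and B2m for the ISRE core and Igtp for both. Genes without a match were not shown, so the 6 are no sample of the genes that rose. In Ifit1 the matches lie on the opposite strand, and in Socs1 the matches overlap.
Irf1 chr11:53769904-53769952 (+): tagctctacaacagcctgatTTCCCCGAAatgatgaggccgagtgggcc
Irf8 chr8:120736167-120736233 (+): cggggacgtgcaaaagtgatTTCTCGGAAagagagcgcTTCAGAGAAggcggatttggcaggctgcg
Socs1 chr16:10785584-10785639 (-): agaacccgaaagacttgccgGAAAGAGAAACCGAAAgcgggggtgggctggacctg
Igtp chr11:58199491-58199551 (+): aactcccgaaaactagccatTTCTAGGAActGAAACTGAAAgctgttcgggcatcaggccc
Ifit1 chr19:34640765-34640833 (+): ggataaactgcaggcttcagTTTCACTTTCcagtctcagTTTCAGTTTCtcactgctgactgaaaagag
B2m chr2:122147528-122147577 (+): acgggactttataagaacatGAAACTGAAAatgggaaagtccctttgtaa

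The first base of the match lies at -90 from the gene's start in Irf1, -171 and -153 in Irf8, -83 and -77 in Socs1, -45 (GAS) and -34 (ISRE) in Igtp, -104 and -85 in Ifit1 and -139 in B2m. Windows from 250 bases before to 50 after the start were available for 10429 of the genes tested. The GAS core was in 6.76% of them and the ISRE core in 2.95%. Among the 500 windows of genes that rose past 2-fold the shares were 13.4% and 16.6%, and among the 113 windows of genes that fell past 2-fold they were 4.42% and 0.885%. The ISRE core was in 8 of 10 windows of immunity-related GTPases and 4 of 4 of guanylate-binding proteins, the lists with the highest shares. It was also in 5 of 26 windows (19.2%) of cytosolic ribosomal protein genes, a list in which no member rose past 2-fold. Among class II genes it was in 0 of 4 windows, and among receptor, JAK and STAT genes in 1 of 9. A match describes letters in a window and not a bound site, and genes of these families share ancestry.

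After 8 h the treated cells had raised the interferon programme, many of its genes from near 0. They had lowered genes of myelin, of its lipids and of the committed precursor stage. With genotype as a covariate, 6034 of 14253 genes tested (42.3%) had an adjusted p below 0.05 (edgeR quasi-likelihood test with Benjamini-Hochberg adjustment), which is what "called", "rose" and "fell" mean below. Of these, 3122 rose (21.9% of genes tested) and 2912 fell (20.4%), with median log2 folds of 0.55 and -0.35. The sides were unequal in size: 690 genes rose past 2-fold (4.84%) and 159 fell past 2-fold (1.12%) when the test was of that threshold, and 177 rose past a log2 fold of 5. The 5 treated libraries were all above the 5 untreated ones for 2526 genes (17.7%) and all below for 2172 (15.2%). The first principal component held 83.9% of the variance and separated treated from untreated libraries. Since each library is a bulk sample, fewer cells of a type and less RNA per cell cannot be told apart.

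**Figure D1:**
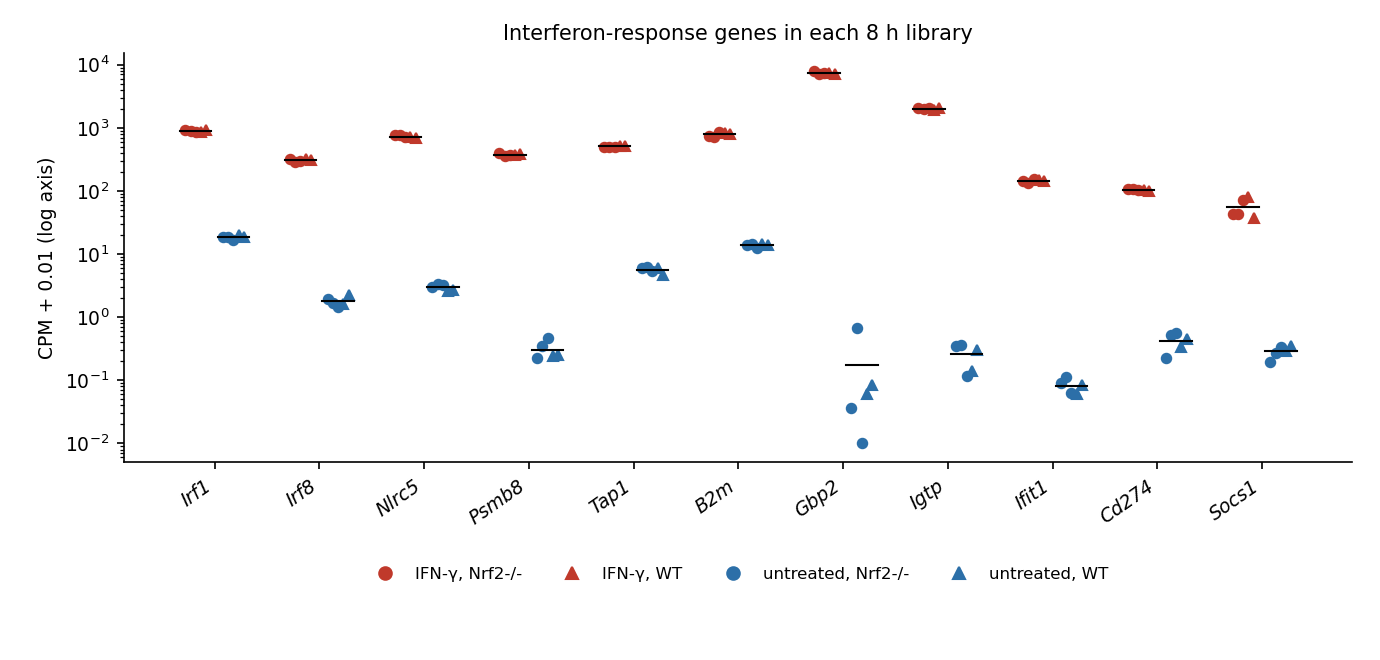
CPM of 11 interferon-response genes in each 8 h library, on a log axis with 0.01 CPM added, so that a library at 0 is drawn at 0.01. Red marks IFN-γ and blue untreated cells, circles Nrf2 -/- and triangles wild type, bars are means of 5 libraries, and for each gene every treated library lay above every untreated one.

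Components of the pathway itself rose: of 12 receptor, JAK and STAT genes listed, 10 had enough counts to test. Of those listed 7 rose (58.3%) and 1 fell (8.33%). Stat2, a partner of IRF9 in the ISRE-binding complex, had 335.1, 348.0, 339.7, 354.0 and 349.8 CPM in IFN-γ libraries, against 55.4, 58.7, 60.4, 55.9 and 58.2 CPM in untreated libraries. These ranges lay apart in both genotypes, with a log2 fold of 2.58 ± 0.04 (SE here and below) and an adjusted p of 1.29e-15. Jak1, a kinase of the receptor, rose by 1.58 ± 0.04 on the log2 scale. The receptor chains did not rise with them: Ifngr1 fell to 19.6, 20.4, 23.6, 21.9 and 20.6 CPM in IFN-γ libraries, against 24.4, 26.4, 24.2, 24.4 and 26.5 CPM in untreated libraries (log2 -0.25 ± 0.06, adjusted p = 0.00437), a call lost within either genotype alone (highest adjusted p = 0.0774), and Ifngr2 had a log2 fold of 0.02 and was not called.

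The interferon-programme transcription factors rose in 10 of 13 listed, 11 of them tested, and none fell. Irf1, an early target whose GAS is shown above, had 925.6, 881.6, 871.5, 850.5 and 911.0 CPM in IFN-γ libraries, against 18.9, 18.4, 16.6, 20.2 and 18.5 CPM in untreated libraries (log2 5.58 ± 0.06, adjusted p = 2.2e-17). Irf8, better known from macrophages and microglia, had 318.6, 287.7, 298.6, 315.2 and 305.9 CPM in IFN-γ libraries, against 1.93, 1.69, 1.42, 1.61 and 2.27 CPM in untreated libraries (log2 7.41 ± 0.09). Neither gene's groups came near to each other. Nlrc5, the transactivator of MHC class I genes, averaged 721.2 ± 30.8 CPM with IFN-γ and 2.96 ± 0.362 CPM untreated (SD, n = 5 each; log2 7.93 ± 0.07). Ciita, the transactivator of class II genes, had 18.2, 18.8, 15.3, 14.5 and 18.8 CPM in IFN-γ libraries, against 0.053, 0, 0, 0 and 0 CPM in untreated libraries, where it rested on 2 counts. The ratio was 1660 (95% interval 461 to 13700); such intervals here and below are 95% exact Poisson limits of the untreated counts and cover counting error only. Irf7 rose by 8.03 ± 0.21 and Irf3, a factor held ready in the cytoplasm, had a log2 fold of -0.08 and was not called.

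Inhibitors that close the loop rose as well, in 7 of 17 listed (41.2%, against 21.9% of all genes tested). Another 1 fell (5.88%, against 20.4%). Socs1, which blocks JAK kinase activity, had 43.7, 43.5, 71.8, 79.3 and 37.7 CPM in IFN-γ libraries, against 0.185, 0.256, 0.321, 0.281 and 0.341 CPM in untreated libraries (log2 7.62 ± 0.37, adjusted p = 4.28e-07). The treated libraries differed about this gene, the highest being Nrf2 -/- replicate 3 and wild-type replicate 1, the libraries rich in AY036118; whether the 2 are linked was not tested. Usp18, which removes ISG15 from proteins and dampens type I interferon signalling, rose by 7.52 ± 0.17, Socs2 by 4.09 ± 0.09 and Socs3 by 1.91 ± 0.08. Ptpn11 (SHP2) was the member that fell, by little (log2 -0.12 ± 0.04, adjusted p = 0.0377), and lost its call in 14 of 22 alternative analyses (highest adjusted p = 0.214).

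Relative changes were large in both families of interferon-inducible GTPases, which attack the vacuoles of intracellular pathogens. All 13 immunity-related GTPases listed rose, and 10 of the 11 guanylate-binding proteins rose, the other having too few counts to test. Gbp2 had 7809.6, 7084, 7445, 7302 and 7223 CPM in IFN-γ libraries, against 0.0265, 0.665, 0, 0.0511 and 0.0731 CPM in untreated libraries (log2 15.42 ± 0.43), and was the fifth gene by mean count in treated cells. Its untreated level was carried mainly by Nrf2 -/- replicate 2. Iigp1 had 3581, 3355, 3852, 3790.0 and 3539 CPM in IFN-γ libraries, against 0, 0.435, 0, 0.0256 and 0.0488 CPM in untreated libraries, with the highest untreated value in the same library. Igtp, whose promoter holds both motifs above and whose gene overlaps Irgm2 in GENCODE M21, had 2044, 1974, 2052, 1897 and 2050.5 CPM in IFN-γ libraries, against 0.344, 0.358, 0.107, 0.128 and 0.293 CPM in untreated libraries (log2 12.97 ± 0.14, adjusted p = 5.38e-17). Irgm1 was the member with a clear untreated level, at 3287, 3099, 3417, 3226 and 3280.0 CPM in IFN-γ libraries, against 67.9, 71.9, 62.8, 75.1 and 63.8 CPM in untreated libraries (log2 5.58 ± 0.07).

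Several members had no untreated read at all. Gbp10 had 180.6, 168.4, 167.5, 152.1 and 163.9 CPM in IFN-γ libraries and no count in any untreated library, which made it at least 10800-fold higher when 3 counts over the 5 untreated libraries stand in for 0. On the same floor 9930111J21Rik2 was at least 6510-fold higher. Over all genes, 33 called genes had no untreated count. Gbp4 rested on 3 untreated counts with a ratio of 52500 (95% interval 18000 to 254000), Ifi47 on 2 with a ratio of 80100 (95% interval 22200 to 661000) and Gm4951 on 1 with a ratio of 141000 (95% interval 25300 to 5580000). Members of both families are near-identical in places, so how the counting divided reads among neighbours such as Gbp6 and Gbp10 or Tgtp1 and Tgtp2 is uncertain.

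MHC class I genes rose together. Of 17 class I genes listed, B2m among them, 13 were tested and all 13 rose. B2m, the light chain of every class I molecule, had 742.9, 715.6, 848.0, 823.8 and 797.4 CPM in IFN-γ libraries, against 14.1, 14.2, 12.5, 14.2 and 13.8 CPM in untreated libraries (log2 5.84 ± 0.07, adjusted p = 3.03e-17). The classical genes H2-K1 and H2-D1 rose by 4.95 ± 0.10 and 4.17 ± 0.07, and the non-classical H2-T23, a ligand of natural killer cell receptors, by 8.63 ± 0.10. The H2-Q genes share long stretches of sequence, so their separate values are uncertain: H2-Q4 had 131.6, 113.5, 145.1, 145.2 and 130.3 CPM in IFN-γ libraries, against 0.662, 0.818, 0.614, 0.511 and 0.731 CPM in untreated libraries.

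In peptide supply 11 of 16 listed genes rose (68.8%) and 1 fell (6.25%). Psmb8, a catalytic subunit of the immunoproteasome, had 391.3, 356.3, 373.4, 370.9 and 381.6 CPM in IFN-γ libraries, against 0.212, 0.333, 0.454, 0.23 and 0.244 CPM in untreated libraries (log2 10.30 ± 0.10). Psmb9, another such subunit, rose by 8.78 ± 0.10. Tap1, a chain of the peptide transporter, had 504.5, 497.6, 499.5, 522.2 and 510.0 CPM in IFN-γ libraries, against 6.04, 6.29, 5.32, 5.96 and 4.71 CPM in untreated libraries (log2 6.48 ± 0.07), and Tap2 rose by 7.54 ± 0.10. Calr, the chaperone calreticulin, was the member that fell (log2 -0.13 ± 0.05, adjusted p = 0.0354), a call lost in 9 of 22 alternatives. The 25 standard proteasome subunits moved little. Of these 7 rose (28%, against 21.9% of all genes tested) and 2 fell (8%, against 20.4%). The count that fell was 6 without untreated Nrf2 -/- replicate 3 and 4 without IFN-γ Nrf2 -/- replicate 3. No log2 fold passed 0.31 in size among those named by the rule. Psmb5, which PSMB8 replaces, averaged 144.4 ± 9.66 CPM with IFN-γ and 118.0 ± 8.71 CPM untreated (log2 0.29 ± 0.05).

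MHC class II genes were low at this hour. Of 11 listed, 5 were tested and all 5 rose. H2-Eb1, a class II beta chain, had 6.67, 4.38, 4.5, 4.56 and 5.19 CPM in IFN-γ libraries, against 0.45, 0.205, 0.187, 0.204 and 0.439 CPM in untreated libraries (log2 4.07 ± 0.23, adjusted p = 3.2e-09). H2-Ab1 rose by 1.75 ± 0.15 and H2-DMa, which helps to load peptides, by 0.97 ± 0.13. Cd74, the invariant chain, had 66 counts over the 10 libraries and was not tested.

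Genes best known from the type I interferon response rose in 28 of 35 listed antiviral effectors, of which 30 were tested, and none fell. Ifit1, which holds back foreign RNA from translation, had 140.9, 135.3, 152.1, 146.4 and 141.2 CPM in IFN-γ libraries, against 0.0795, 0.102, 0.0534, 0.0511 and 0.0731 CPM in untreated libraries (log2 10.89 ± 0.10, adjusted p = 3.42e-18). Oasl2 averaged 94 ± 6.9 CPM with IFN-γ and 0.0313 ± 0.0219 CPM untreated. Isg15, the ubiquitin-like modifier, had 15.3, 16.3, 14.8, 15.6 and 13.5 CPM in IFN-γ libraries and 1 count in the 5 untreated libraries together, a ratio of 2940 (95% interval 527 to 116000). Uba7, the enzyme that activates ISG15 and a gene outside the lists, rose by 9.01 ± 0.12. Of the Mx genes, Mx1 rose by 3.79 ± 0.19, while Mx2 had a log2 fold of 0.11 and was not called.

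Among 17 nucleic acid sensors listed, 10 were tested. Of those listed, 8 rose (47.1%, against 21.9% of all genes tested) and 2 fell (11.8%, against 20.4%). Zbp1, a sensor of Z-form nucleic acid that can trigger necroptosis, had 78.2, 68.3, 84.4, 78.1 and 78.1 CPM in IFN-γ libraries, against 0.159, 0.0256, 0.0801, 0.0511 and 0.0731 CPM in untreated libraries (log2 9.91 ± 0.15). Ifih1 (MDA5) and Tlr3, sensors of double-stranded RNA, rose by 7.72 ± 0.16 and 7.31 ± 0.17, and Ddx58 (RIG-I) by 5.51 ± 0.11. Mavs, the adaptor below RIG-I and MDA5, had a log2 fold of -0.22 ± 0.08 and an adjusted p of 0.0469, and was called in only 6 of 22 alternatives, so its fall is not stable. Of 15 genes of the PARP family and its partner Dtx3l listed together, 10 rose (66.7%) and 2 fell (13.3%). Parp14, a mono-ADP-ribosyltransferase, had 435.3, 481.9, 417.2, 467.0 and 435.6 CPM in IFN-γ libraries, against 0.106, 0.153, 0.16, 0.102 and 0.0731 CPM in untreated libraries (log2 11.84 ± 0.10). Parp9 and its ubiquitin ligase partner Dtx3l, rose by 9.25 ± 0.13 and 10.17 ± 0.08, though they overlap on opposite strands of chromosome 16 and reads there cannot be assigned without strand. Parp1, the abundant DNA repair enzyme, averaged 640.6 ± 24.4 CPM with IFN-γ and 756.3 ± 28.8 CPM untreated (log2 -0.24 ± 0.04).

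Secreted immune signals were few. Of 28 chemokine and cytokine genes listed, 7 had enough counts to test. Of those listed, 6 rose (21.4%, near the 21.9% over all genes tested). The count filter passes a gene with counts in 1 treatment group alone, so Cxcl10 was tested only through its treated counts. Cxcl10, a T-cell attractant often used as a marker of IFN-γ action, had 1.53, 1.45, 1.54, 1.63 and 1.94 CPM in IFN-γ libraries and no count in untreated ones, at least 105-fold higher. Il18bp, the decoy receptor of interleukin-18, rose by 2.45 ± 0.11, Cx3cl1, a ligand of microglial CX3CR1, by 1.84 ± 0.11, and Csf1, a growth factor of microglia, to 101.4, 110.2, 105.7, 107.2 and 100.9 CPM in IFN-γ libraries, against 42.7, 43.4, 48.5, 39.8 and 43.7 CPM in untreated libraries (log2 1.27 ± 0.05). Il6, Tnf, Il1b, Ccl2, Ccl5 and Cxcl9 were among the 21 members with too few counts to test.

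Of 12 adhesion, co-stimulation and checkpoint genes listed, 6 were tested, 5 rose and none fell. Cd274, the checkpoint ligand PD-L1, had 109.0, 108.2, 103.3, 101.6 and 100.1 CPM in IFN-γ libraries, against 0.212, 0.512, 0.561, 0.332 and 0.439 CPM in untreated libraries (log2 7.98 ± 0.12, adjusted p = 1.08e-15). Icam1, an adhesion molecule for leukocytes, had 2.87, 3.34, 2.82, 2.89 and 2.96 CPM in IFN-γ libraries and 2 untreated counts in all, a ratio of 290 (95% interval 80 to 2390). Lgals9, a galectin that binds T cells, had 1 untreated count and a ratio of 601 (95% interval 108 to 23700). Cd80, Cd86, Cd40 and Vcam1 had too few counts to test. Cd47, the signal that stops phagocytosis, had 83.6, 80.4, 89, 90.2 and 84.8 CPM in IFN-γ libraries, against 50.8, 47.1, 80.2, 54.5 and 54.3 CPM in untreated libraries, where Nrf2 -/- replicate 3 stood apart at 80.2. The log2 fold was 0.58 ± 0.13, and without that library 0.74; the call was lost in the Nrf2 -/- libraries alone (adjusted p = 0.146).

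Of 22 complement genes listed, 10 were tested and 5 rose (22.7% of those listed, near the 21.9% over all genes tested). None fell (1 without untreated Nrf2 -/- replicate 1 or without IFN-γ Nrf2 -/- replicate 3). C1ra, a protease of the C1 complex, had 8.86, 8.9, 10.1, 8.35 and 8.08 CPM in IFN-γ libraries and no untreated count, at least 575-fold higher. Serping1, the inhibitor of that complex, had 98.7, 93.3, 93.1, 88.4 and 98.3 CPM in IFN-γ libraries, against 0.053, 0.0767, 0, 0 and 0.0488 CPM in untreated libraries (log2 11.23 ± 0.17), so that it was the more abundant gene of the 2. C4b, whose product tags surfaces, averaged 105.7 ± 8.38 CPM with IFN-γ and 14.4 ± 1.34 CPM untreated (log2 2.87 ± 0.07). Among 16 genes of tryptophan, nitric oxide, itaconate and redox metabolism, 8 were tested. Of those listed, 4 rose (25%, near the 21.9% over all genes tested) and 1 fell (6.25%, against 20.4%). Wars, the tryptophanyl-tRNA synthetase, rose to 840.9, 809.9, 896.8, 950.9 and 891.8 CPM in IFN-γ libraries, against 87.6, 94.5, 90.5, 91.2 and 95.2 CPM in untreated libraries (log2 3.26 ± 0.05). Ido1, which breaks down tryptophan, averaged 0.499 ± 0.0576 CPM with IFN-γ and 0.0155 ± 0.023 CPM untreated, and Nos2, the inducible nitric oxide synthase of macrophages, fell to 0.517 ± 0.195 CPM with IFN-γ, against 1.47 ± 0.452 CPM untreated (log2 -1.49 ± 0.26).

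Genes of cell death rose. Of 20 caspases and genes of lytic death, 15 were tested, 12 rose and none fell. Casp12, a caspase of the inflammatory group, had 45, 38.3, 40.1, 42.8 and 40.4 CPM in IFN-γ libraries, against 0.132, 0.102, 0.214, 0.0767 and 0.0244 CPM in untreated libraries (log2 8.53 ± 0.16, adjusted p = 8.78e-15). Casp4, the mouse sensor of cytosolic lipopolysaccharide, had 28.6, 25.7, 25.6, 26.1 and 24.5 CPM in IFN-γ libraries, against 0.371, 0.358, 0.347, 0.409 and 0.317 CPM in untreated libraries (log2 6.16 ± 0.10), and Casp1 rose by 7.82 ± 0.24. Gsdmd, which forms the membrane pore that these enzymes open, rose by 5.91 ± 0.38, and Mlkl, the effector of necroptosis, by 3.58 ± 0.11. Nlrp3, Pycard, Ripk3 and Casp8 had too few counts to test.

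Among 31 death receptors, BCL2 family genes and p53 targets, 27 were tested. Of those listed 14 rose (45.2%, against 21.9% of all genes tested) and 2 fell (6.45%, against 20.4%). Fas, the death receptor, had 12, 11.2, 10.7, 9.26 and 10.5 CPM in IFN-γ libraries, against 0.53, 0.588, 0.481, 0.435 and 0.512 CPM in untreated libraries (log2 4.39 ± 0.11, adjusted p = 2.86e-13). Tnfrsf1a, the main receptor of tumour necrosis factor, averaged 76 ± 2.6 CPM with IFN-γ and 33 ± 4.31 CPM untreated (log2 1.21 ± 0.08), and Bid, which links death receptors to mitochondria, rose by 1.77 ± 0.08. Bax and Bak1, which perforate mitochondria, had log2 folds of -0.06 and 0.08, and the p53 targets Cdkn1a and Mdm2 of 0.14 and -0.14; none of the 4 was called. Ccng1, another p53 target, had a log2 fold of -0.14 ± 0.05 (adjusted p = 0.0356), which lost its call in 11 of 22 alternatives, and Sesn2 fell (log2 -0.20 ± 0.04), a call lost in the wild-type libraries alone (adjusted p = 0.0875). Of 22 NF-κB genes, 20 were tested, 8 rose (36.4% of those listed) and 3 fell (13.6%). Over all genes tested 21.9% rose and 20.4% fell. The count that fell was 1 without the 2 libraries of conflicting labels. Tnfaip3 (A20), which shuts the pathway off, rose by 3.47 ± 0.11 and Bcl3 by 2.18 ± 0.13. The inhibitor gene Nfkbib fell to 18.1, 18, 21.4, 21.6 and 19.2 CPM in IFN-γ libraries, against 37.8, 37.9, 35.2, 41.3 and 40.7 CPM in untreated libraries (log2 -0.97 ± 0.06).

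**Figure D2:**
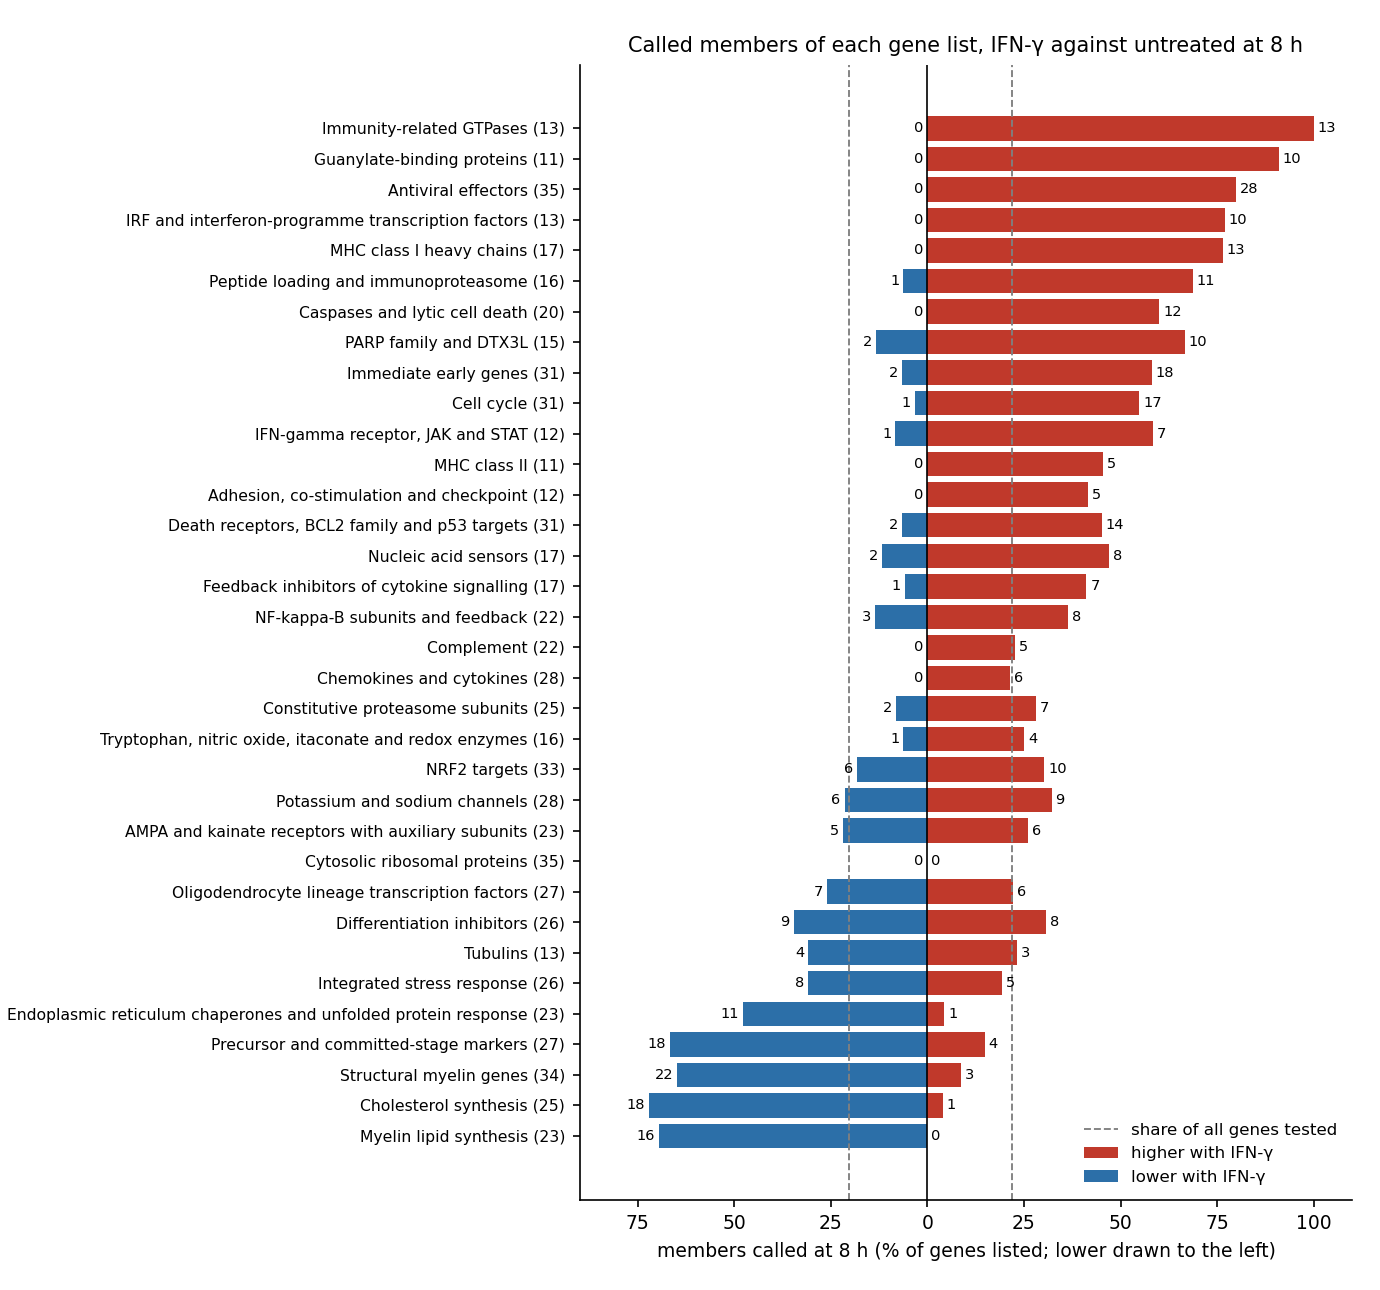
Share of the members of each gene list that were called higher (red, to the right) or lower (blue, to the left). The comparison is of 5 IFN-γ against 5 untreated libraries at 8 h. The number of members called stands at the end of each bar and the number listed in parentheses. Bars are shares of the genes listed, whether or not they had enough counts to test. Dashed lines mark the shares over all genes tested, 21.9% higher and 20.4% lower; interferon lists lie far to the right of these and lists of myelin, lipid synthesis and precursor stage far to the left.

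Genes of the response to unfolded proteins did not rise as a group. Of 26 genes of the integrated stress response, in which kinases of eIF2α act through ATF4, 25 were tested. Of those listed 5 rose (19.2%, near the 21.9% of all genes tested) and 8 fell (30.8%, against 20.4%). The median log2 fold was -0.08, against -0.011 over all genes tested. Ddit3 (CHOP), a death-linked factor of this response, had 8.12, 9.29, 8.92, 7.92 and 9.16 CPM in IFN-γ libraries, against 7.36, 7.42, 7.96, 7.9 and 8.29 CPM in untreated libraries (log2 0.16 ± 0.08, adjusted p = 0.121) and was not called; the libraries overlapped. Of 23 endoplasmic reticulum chaperones and unfolded protein response genes, 11 fell (47.8%) and 1 rose, and each of those named by the rule moved by less than 0.4 on the log2 scale. Hyou1 fell to 191.4, 179.8, 173.2, 176.3 and 200.2 CPM in IFN-γ libraries, against 229.8, 217.9, 244.2, 241.5 and 240.9 CPM in untreated libraries (log2 -0.35 ± 0.05), and Xbp1, a transcription factor of this response, fell too (log2 -0.33 ± 0.04). Edem1, which rose, lost its call in 9 of 22 alternatives (highest adjusted p = 0.31).

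For thapsigargin, which is known to set off this response, the libraries of the same hour were set against the same untreated libraries. There 11048 of 16460 genes were called (67.1%; 34.3% higher and 32.9% lower), the median log2 fold was 3.59 over the integrated stress response list and 3.23 over the chaperone list, and Ddit3 had a log2 fold of 5.85. The comparisons share their controls, so the values are set side by side with no test between them. The members of the stress list that did rise with IFN-γ were led by Atf3 (3.14 ± 0.15), Trib3 (3.06 ± 0.29), Cebpb (2.62 ± 0.39) and Slc7a11 (2.40 ± 0.33), while the serine synthesis enzymes Psat1 and Phgdh, also ATF4 targets, fell, with log2 folds of -0.77 ± 0.05 and -0.35 ± 0.08; the call of Phgdh was lost in the Nrf2 -/- libraries alone (adjusted p = 0.053).

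Of 33 NRF2 target genes, 30 were tested. Of those listed 10 rose (30.3%, against 21.9% of all genes tested) and 6 fell (18.2%, near the 20.4% over all genes). The median log2 fold was 0 over those tested. Txnrd1, a thioredoxin reductase, had 479.5, 466.3, 479.0, 481.1 and 478.2 CPM in IFN-γ libraries, against 277.6, 298.5, 281.9, 291.2 and 290.3 CPM in untreated libraries (log2 0.73 ± 0.04, adjusted p = 1.03e-09). The mutant and wild-type values of this gene lay together in both groups. Hmox1, haem oxygenase, rose to 11.1, 11.3, 11.8, 11.4 and 9.97 CPM in IFN-γ libraries, against 7.42, 8.9, 8.79, 8.15 and 7.53 CPM in untreated libraries (log2 0.44 ± 0.08). Abcc1, an exporter of glutathione conjugates, fell (log2 -0.57 ± 0.05), and Nqo1 had 52 counts over the 10 libraries and was not tested. The count of members that rose was 6 without IFN-γ Nrf2 -/- replicate 1. Nfe2l2 itself was not called with all 10 libraries (log2 -0.40 ± 1.2, adjusted p = 0.827). Without the untreated library at odds with its label the log2 fold was 1.15 (adjusted p = 0.0025), and in the wild-type libraries alone, 2 against 2, it was 1.22 (adjusted p = 0.0364).

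Immediate early genes, which respond to signals before new protein is made, were raised at 8 h: 18 of 31 listed rose (58.1%), 2 fell and 25 were tested, with a median log2 fold of 0.92. Egr2 had 31.1, 28.8, 25.3, 25.7 and 27.6 CPM in IFN-γ libraries, against 0.265, 0.614, 0.374, 0.46 and 0.829 CPM in untreated libraries (log2 5.75 ± 0.17, adjusted p = 2.57e-11); in Schwann cells its product drives myelination. Jun, known there for opposing it, had 520.5, 478.3, 551.2, 637.6 and 493.9 CPM in IFN-γ libraries, against 33, 37.1, 31.2, 36.4 and 31.7 CPM in untreated libraries (log2 3.98 ± 0.09). Fosl2 rose by 3.64 ± 0.09, while Fos rose by 0.72 ± 0.06 and Junb by 1.55 ± 0.17. The members that fell, Nr4a1 (-0.31 ± 0.10, adjusted p = 0.0269) and Klf10 (-0.21 ± 0.07, adjusted p = 0.0377), overlapped between groups and each lost its call in 10 of 22 alternatives.

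Genes of the oligodendrocyte itself moved the other way. Of 34 structural myelin genes listed, 31 were tested, 22 fell (64.7%, against 20.4% of all genes tested) and 3 rose, with a median log2 fold of -0.67. Mbp, myelin basic protein, had 158.1, 128.1, 179.2, 214.9 and 160.7 CPM in IFN-γ libraries, against 326.6, 261.5, 343.4, 361.4 and 335.2 CPM in untreated libraries (log2 -0.96 ± 0.12, adjusted p = 9.64e-05). The groups were apart, and Nrf2 -/- replicate 2 was the lowest library within each group. Mog, a late surface protein of myelin, averaged 7.99 ± 0.958 CPM with IFN-γ and 21 ± 2.29 CPM untreated (log2 -1.40 ± 0.10). Enpp6, a marker of cells newly entering myelination, had 187.2, 182.1, 252.2, 279.3 and 220.2 CPM in IFN-γ libraries, against 579.8, 495.9, 686.2, 616.8 and 651.9 CPM in untreated libraries (log2 -1.44 ± 0.12), and the tetraspanin gene Cd82 fell (log2 -1.58 ± 0.10).

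**Figure D3:**
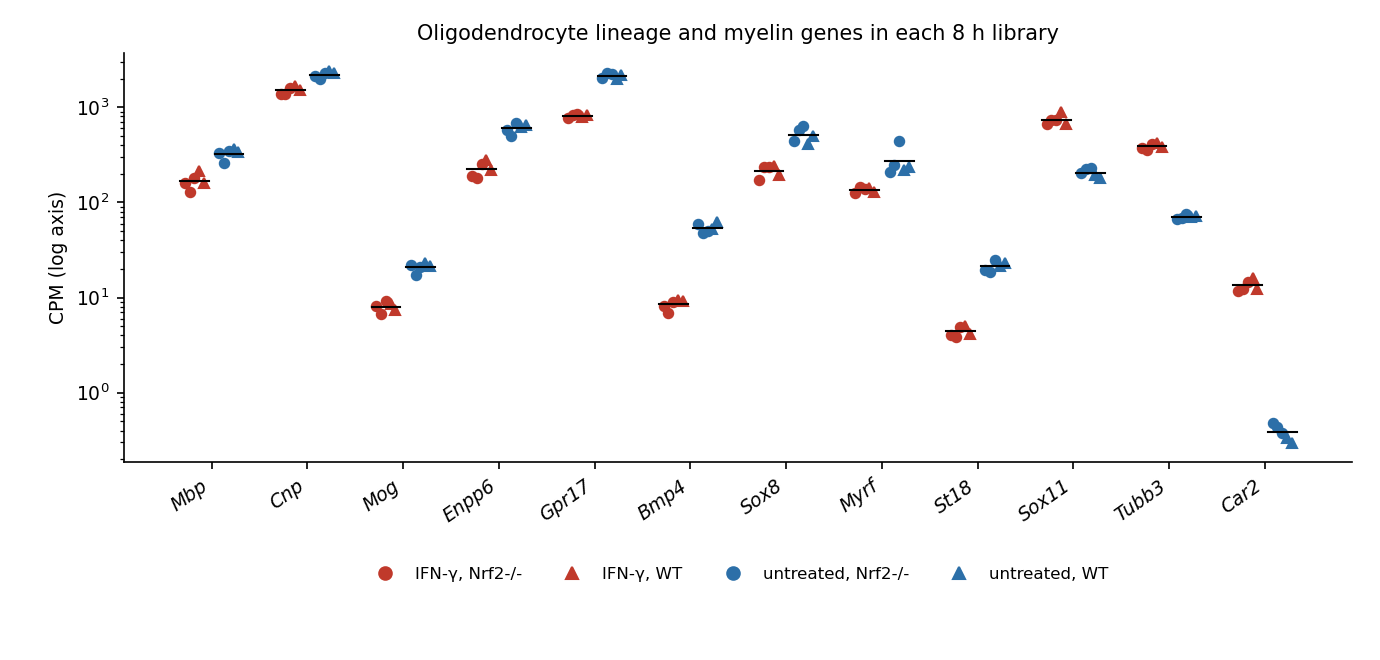
CPM of 12 oligodendrocyte lineage genes in each 8 h library, on a log axis. Red marks IFN-γ and blue untreated cells, circles Nrf2 -/- and triangles wild type, and bars are means of 5 libraries; 9 genes were lower with IFN-γ and 3 (Sox11, Tubb3 and Car2) were higher, without overlap, and 1 untreated library stands apart for Myrf.

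Some members of the myelin list went against the rest. Car2, carbonic anhydrase 2, which mature oligodendrocytes make, had 11.8, 12.3, 14.7, 16.2 and 12.2 CPM in IFN-γ libraries, against 0.477, 0.435, 0.374, 0.332 and 0.293 CPM in untreated libraries (log2 5.12 ± 0.15, adjusted p = 2.07e-12). Enpp2, a secreted enzyme that promotes process outgrowth, rose to 1825 ± 187.5 CPM with IFN-γ, against 837.6 ± 76.1 CPM untreated (log2 1.12 ± 0.08), and the gap junction gene Gjc3 rose by 0.75 ± 0.05. Cd9, Ermn and Ptgds had log2 folds of -0.07, -0.14 and -0.04 and were not called.

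Genes of lipid synthesis fell as well. Of 23 genes of myelin lipid synthesis, 22 were tested, 16 fell (69.6%) and none rose. Ugt8a, which makes galactosylceramide, had 728.0, 707.5, 868.5, 908.9 and 806.0 CPM in IFN-γ libraries, against 1419, 1255, 1427, 1461 and 1428 CPM in untreated libraries (log2 -0.80 ± 0.07, adjusted p = 1.73e-07). Fa2h, which hydroxylates the fatty acids of that lipid, averaged 18.5 ± 3.07 CPM with IFN-γ and 42.9 ± 8.82 CPM untreated (log2 -1.22 ± 0.16). Of 25 genes of cholesterol synthesis, 24 were tested, 18 fell (72%) and 1 rose (2 without untreated Nrf2 -/- replicate 3), with a median log2 fold of -0.27. Mvd and Mvk, enzymes of the mevalonate pathway, fell, with log2 folds of -0.61 ± 0.05 and -0.61 ± 0.04, and Hsd17b7 was the member that rose, by 0.37 ± 0.05.

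The committed precursor stage, which lies between precursors and myelinating cells, was lower too: 18 of 27 listed genes fell (66.7%) and 4 rose, with a median log2 fold of -0.40. Gpr17, a receptor that marks committed precursors, had 774.8, 824.8, 843.5, 797.0 and 838.9 CPM in IFN-γ libraries, against 2023, 2294, 2222, 2005 and 2158 CPM in untreated libraries (log2 -1.39 ± 0.05, adjusted p = 3.11e-11). Bmp4, a secreted factor that cells of this stage make, had 8.2, 6.93, 8.92, 9.44 and 9.1 CPM in IFN-γ libraries, against 58.6, 47.9, 50.2, 52.6 and 62.4 CPM in untreated libraries (log2 -2.68 ± 0.08). Neu4, a sialidase gene, and Kank1 fell, with log2 folds of -1.45 ± 0.05 and -1.68 ± 0.05. Pdgfra, the growth factor receptor of earlier precursors, had 635.5, 719.9, 552.3, 505.8 and 598.3 CPM in IFN-γ libraries, against 517.1, 631.3, 524.5, 497.1 and 456.4 CPM in untreated libraries, which overlapped (log2 0.20 ± 0.08, adjusted p = 0.0676), and it passed the threshold in 6 of 22 alternatives. Ptprz1, a phosphatase of precursors, rose by 0.67 ± 0.12.

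Of 27 lineage transcription factors listed, 26 were tested, 6 rose (22.2%, near the 21.9% over all genes) and 7 fell (25.9%, against 20.4%); without the 3 libraries of doubtful genotype 11 rose. Olig2 and Sox10, which define the lineage, had log2 folds of 0.01 and -0.07 and were not called. Olig1 had a log2 fold of 0.17 ± 0.06 (adjusted p = 0.0379), which lost its call in 11 of 22 alternatives. Myrf, the factor that switches on myelin genes, had 126.2, 144.1, 137.1, 142.2 and 127.4 CPM in IFN-γ libraries, against 206.9, 248.6, 438.6, 221.1 and 236.1 CPM in untreated libraries. All treated values lay below all untreated ones, and untreated Nrf2 -/- replicate 3, the library at odds with its label, was highest; the log2 fold was -0.99 ± 0.20 with it (adjusted p = 0.00483) and -0.75 without it (adjusted p = 2.69e-08). Tcf7l2, a factor of the same transition, followed the same pattern, with 24.9, 32.4, 32.9, 34.9 and 23 CPM in IFN-γ libraries, against 47.4, 55.6, 120.3, 50.5 and 55.8 CPM in untreated libraries, a log2 fold of -1.14 ± 0.29 with that library and -0.83 without it. Its call was lost in the Nrf2 -/- libraries alone (adjusted p = 0.08). Sox8 and St18 fell, with log2 folds of -1.25 ± 0.15 and -2.28 ± 0.10, while Prox1 and Sox9 rose by 1.84 ± 0.17 and 1.06 ± 0.17.

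Of 26 genes listed as inhibitors of differentiation, 8 rose (30.8%, against 21.9% of all genes tested) and 9 fell (34.6%, against 20.4%). The list as a group thus had no single direction. Sox11, a factor of immature cells, had 674.1, 740.4, 739.7, 894.3 and 666.4 CPM in IFN-γ libraries, against 202.3, 222.5, 227.4, 193.6 and 181.0 CPM in untreated libraries (log2 1.86 ± 0.09, adjusted p = 7.34e-09). Id3, which sequesters basic helix-loop-helix factors, rose by 1.13 ± 0.12 and Bmpr1b, a BMP receptor, by 2.22 ± 0.12. Gpr37, a receptor that restrains differentiation, fell to 2.95, 2.53, 3.29, 4.05 and 3.8 CPM in IFN-γ libraries, against 13.2, 11.4, 15.3, 13.4 and 11.2 CPM in untreated libraries (log2 -1.97 ± 0.13), and Sox5 and the Notch ligand genes Dll3 and Jag1 fell, with log2 folds of -1.64 ± 0.10, -1.11 ± 0.10 and -0.92 ± 0.10.

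Of 23 AMPA and kainate receptor genes with their auxiliary subunits, 20 were tested, 6 rose (26.1% of those listed) and 5 fell (21.7%). Over all genes tested 21.9% rose and 20.4% fell. Within that list Cacng5, an auxiliary subunit, had 62.9, 54.6, 60.6, 65.4 and 60.4 CPM in IFN-γ libraries, against 11.8, 12.1, 14.1, 11.5 and 10.6 CPM in untreated libraries (log2 2.34 ± 0.07), and Grik2, a kainate receptor subunit, rose by 1.95 ± 0.05. Shisa9, another auxiliary subunit, fell to 0.316, 0.295, 0.872, 0.506 and 0.394 CPM in IFN-γ libraries, against 6.54, 6.11, 8.07, 5.24 and 8.07 CPM in untreated libraries (log2 -3.88 ± 0.24, adjusted p = 1.95e-08). Of 28 potassium and sodium channel genes, 26 were tested, 9 rose (32.1%, against 21.9% of all genes tested) and 6 fell (21.4%, against 20.4%). Kcna5 rose by 2.07 ± 0.11 and Kcnk10 by 1.22 ± 0.06. Kcnj10 (Kir4.1), the main inward rectifier of glia, had 32.5, 32.8, 36.7, 35.5 and 31.9 CPM in IFN-γ libraries, against 45.9, 52.2, 104.8, 55.3 and 51.8 CPM in untreated libraries, with 1 untreated library again apart; the log2 fold was -0.87 ± 0.23 with it and -0.60 without it, and the call was lost in the Nrf2 -/- libraries alone (adjusted p = 0.107).

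Among 13 tubulin genes, 11 were tested, 3 rose (23.1% of those listed, against 21.9% of all genes) and 4 fell (30.8%, against 20.4%). Tubb3, a beta-tubulin best known from neurons, had 373.7, 358.7, 407.0, 419.4 and 383.5 CPM in IFN-γ libraries, against 66.6, 68.4, 75.6, 69.9 and 71.1 CPM in untreated libraries (log2 2.47 ± 0.05, adjusted p = 4.22e-14). Tuba1a and Tubb2b, which had higher CPM, fell, with log2 folds of -0.31 ± 0.06 and -0.31 ± 0.05, and Tubb4b had one of -0.90 ± 0.05. Tubulin genes share long stretches of sequence, so the division of reads among them is uncertain.

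Of 31 cell cycle genes, 17 rose (54.8%, against 21.9% of all genes tested) and 1 fell (3.23%, against 20.4%). The count that fell was 3 without untreated Nrf2 -/- replicate 3. The members that rose were the D and E cyclins, E2f1, genes of DNA replication and nucleotide supply, and Top2a. Ccnd1, cyclin D1, had 533.3, 530.2, 472.8, 463.7 and 517.5 CPM in IFN-γ libraries, against 133.9, 145.2, 117.4, 138.1 and 121.6 CPM in untreated libraries (log2 1.94 ± 0.07, adjusted p = 7.44e-12). Ccnd2 rose by 2.50 ± 0.15 and E2f1 by 1.16 ± 0.16, and of the helicase genes Mcm2 to Mcm7 all 6 rose, Mcm3 the most, by 1.05 ± 0.10. Mki67, a marker of cycling cells, had 237.6, 248.6, 186.0, 207.3 and 206.9 CPM in IFN-γ libraries, against 246.9, 260.3, 242.1, 228.2 and 178.1 CPM in untreated libraries, with overlapping ranges (log2 -0.08 ± 0.09, adjusted p = 0.5). The mitotic genes Plk1, Bub1 and Ccnb1 had log2 folds of -0.08, -0.01 and -0.22 and were not called, and Cdc20 was the member that fell (-0.25 ± 0.07, lost in 2 of 22 alternatives). None of 35 ribosomal protein genes was called, with a median log2 fold of -0.02.

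The cells were checked against markers of their labelled type and of others a brain culture could hold. The summed level of 10 oligodendrocyte lineage markers was 9050.5 to 10482.8 CPM with IFN-γ and 14099.6 to 15177.2 CPM untreated, and all 10 were present. The sum of 12 astrocyte markers was 449.4 to 510.9 CPM with IFN-γ and 514.4 to 582.1 CPM untreated. Of these markers 2 rose, led by the glutamate transporter Slc1a3 (1.94 ± 0.07), and 2 fell. Each count was 16.7% of those listed, where 21.9% of all genes tested rose and 20.4% fell. The sum of 17 microglia and macrophage markers was 38.5 to 42.5 CPM with IFN-γ and 35.8 to 47.3 CPM untreated. Of these, 6 had no count in any of the 10 libraries (Aif1, C1qa, C1qb, C1qc, Trem2 and Tyrobp), and Cx3cr1 had 1 count. The member called was P2ry12, at 3.78 ± 0.482 CPM with IFN-γ and 1.43 ± 0.261 CPM untreated. The interferon genes above were thus measured in libraries where the defining microglial markers were at or near 0.

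The sum of 13 neuron markers was 1586.1 to 1723.2 CPM with IFN-γ and 1926.4 to 2154.1 CPM untreated, most of it Map2, which fell (log2 -0.39 ± 0.04). Of these markers 8 were tested, 4 rose (30.8% of those listed) and 2 fell (15.4%), with a median log2 fold of 0.3, so that the sum and the median differ in sign. Syt1, of synaptic vesicles, had 17.9 ± 2.16 CPM with IFN-γ and 8.44 ± 1.88 CPM untreated (log2 1.09 ± 0.13), and the neurofilament gene Nefl 6.37 ± 0.367 CPM with IFN-γ and 4.82 ± 0.778 CPM untreated (log2 0.40 ± 0.11), a call lost in the Nrf2 -/- libraries alone (adjusted p = 0.186). The sum of 15 endothelial, mural and fibroblast markers was 9.13 to 11.3 CPM with IFN-γ and 1.71 to 2.06 CPM untreated, with Cldn5 and Cdh5 at 0. That difference came from Acta2, smooth muscle actin, at 5.85, 5.11, 6.07, 5.24 and 5.14 CPM in IFN-γ libraries, against 0.159, 0.0256, 0.0534, 0 and 0.0244 CPM in untreated libraries (log2 6.64 ± 0.29), and from Lum at 2.64 ± 0.532 CPM with IFN-γ and 0.042 ± 0.0524 CPM untreated, while the collagen genes of the list had at most 5 counts each. The sum of 7 Schwann cell markers was 607.4 to 842.6 CPM with IFN-γ and 741 to 860.4 CPM untreated, nearly all of it Sox2 and Mbp, which oligodendrocytes also express. The part of these cells in the gene group results was not tested.

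Outside the lists, 12 protein-coding genes were named for the highest folds. Apol6, an apolipoprotein L gene, had 114.2, 119.8, 119.7, 117.6 and 121.1 CPM in IFN-γ libraries and 1 count in the untreated libraries together, a ratio of 23000 (95% interval 4130 to 910000). Gm4841 and Mpeg1, which encodes a pore-forming protein of phagocytes, had no untreated count and were at least 3450-fold and 948-fold higher. Vdr, the vitamin D receptor, had 12, 13.5, 12.1, 14.9 and 10.9 CPM in IFN-γ libraries, against 0.053, 0.0512, 0, 0.0511 and 0 CPM in untreated libraries (log2 8.53 ± 0.26). Prdm1 (BLIMP1), a transcriptional repressor, rose by 8.54 ± 0.28. Serpina3f, Slfn8, Trim12c, Olfr56, Apol10b, Uba7 and Gm12216 completed the 12, of which Olfr56 spans Tgtp1, Tgtp2 and Ifi47 in GENCODE M21. The strand setting of the counting is not given in the sources used here, so the value of Olfr56 may hold reads of those genes.

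The 12 that fell most outside the lists had untreated levels of 5.02 to 104.6 CPM. Plekhf1, an endosomal adaptor, had 1.77, 2.14, 2.45, 3.07 and 2.62 CPM in IFN-γ libraries, against 22, 20.2, 22.1, 22.5 and 25.8 CPM in untreated libraries (log2 -3.24 ± 0.10, adjusted p = 2.05e-12). Kif26a, an atypical kinesin, had 1.9, 2.29, 1.74, 2.1 and 2.34 CPM in IFN-γ libraries, against 19.2, 17.3, 21.9, 21.7 and 21.4 CPM in untreated libraries (log2 -3.28 ± 0.10). Gng4, a G protein subunit, and Slc5a7, the choline transporter of neurons, fell, with log2 folds of -3.19 ± 0.11 and -3.08 ± 0.15. The log2 folds of Shisal1 and Tmem132b were -2.67 ± 0.10 and -2.56 ± 0.05, and for none of these genes did the groups overlap, which the rule required.

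Adar, which encodes the RNA-editing enzyme ADAR1, rose by 1.12 ± 0.08 as a gene, and the shares of its transcripts changed. Shares here are of the gene's estimated counts in the deposited transcript table, and 25 transcripts of 11 genes were compared with an exact two-sided permutation test over 5 against 5 libraries, whose smallest p is 0.00794 (0.0283 after Benjamini-Hochberg adjustment). Adar-203, on the plus strand of chromosome 3 from 89730748 in GENCODE M21 (GRCm38), encodes 1178 residues, the long form called p150 in the field. It held 41.6%, 24.7%, 47.4%, 40% and 36.6% of the gene in IFN-γ libraries, and 1.16% in untreated Nrf2 -/- replicate 3 with at most 0.0331% in the other 4 untreated libraries. Adar-201, with the same start and 1152 residues, held 19.9% ± 2.69 with IFN-γ and 8.49% ± 3.44 untreated (SD, n = 5 each). Adar-202, which starts upstream at 89715022 and encodes the 930 residues of the short form, p110, held 38.3% ± 6.65 with IFN-γ and 86.2% ± 3.27 untreated. All 3 had the smallest adjusted p this design allows, and without the 2 libraries of conflicting labels the design was too small for any transcript to reach the threshold.

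**Figure D4:**
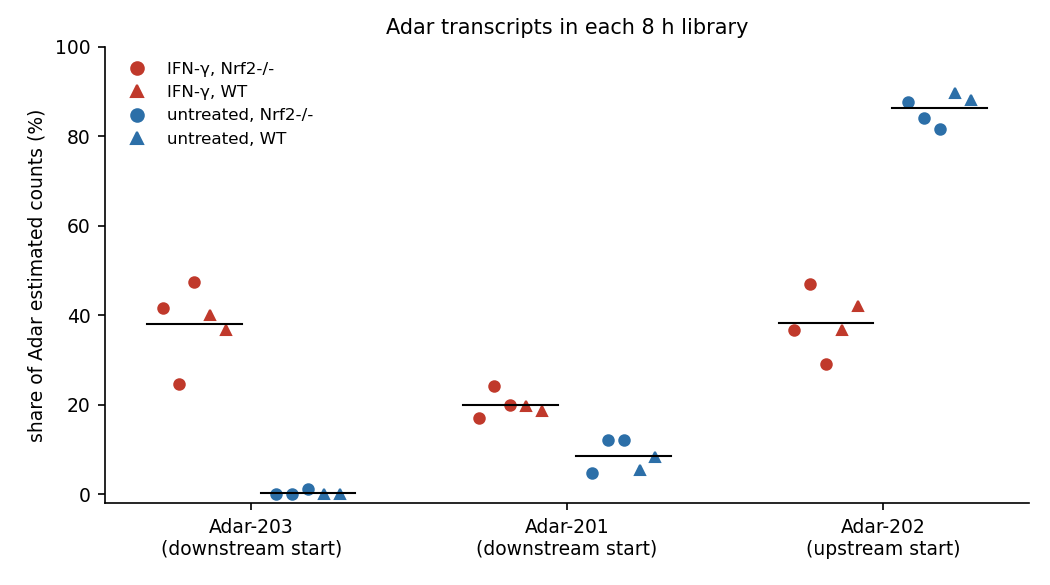
Share of Adar estimated counts in each of 3 transcripts in every 8 h library, in percent. Red marks IFN-γ and blue untreated cells, circles Nrf2 -/- and triangles wild type, bars are means of 5 libraries; Adar-203 averaged 38.1% with IFN-γ and 0.239% untreated, and Adar-202 averaged 38.3% with IFN-γ and 86.2% untreated.

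In estimated counts the short form changed little: Adar-202 had 1091.1 ± 375.3 with IFN-γ and 1224.2 ± 139.2 untreated, while Adar-203 had 1034.5 ± 159.4 with IFN-γ and 3.9 ± 8.5 untreated (SD, n = 5 each). The change in share thus lay in the transcripts from the downstream start. Of the other transcripts, Irf1-202 held 85.1% ± 1.9 with IFN-γ and 69.6% ± 5.66 untreated, and Irf1-201, which encodes the same 329 residues, 6.39% ± 1.3 with IFN-γ and 19.8% ± 2.67 untreated. Both reached an adjusted p of 0.0283. Mbp-205, of 195 residues, held 8.6% ± 1.53 with IFN-γ and 11.9% ± 1.37 untreated (exact permutation test, adjusted p = 0.0496), so 8 of 25 transcripts were called. No transcript of Mag, Nfasc, Bin1, Tap1, Xbp1 or Nfe2l2 was called.

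To place 8 h in the course of the response, the treated and untreated libraries of all 4 hours were fitted together, each hour with its own untreated cells (40 libraries, 16191 genes). In that fit 613 genes were called at 1 h (3.79%; 2.76% higher and 1.03% lower), 6693 at 8 h (41.3%; 19% higher and 22.4% lower), 9136 at 24 h (56.4%; 29.7% higher and 26.8% lower) and 9196 at 48 h (56.8%; 28.3% higher and 28.4% lower). The 8 h response differed from the 1 h response for 4107 genes (25.4%; the 8 h fold was higher for 12.5% and lower for 12.9%). It differed from the 24 h response for 5480 (33.8%; 15.2% higher and 18.6% lower) and from the 48 h response for 6929 (42.8%; 19.3% higher and 23.5% lower). The balance depended on scaling: of the genes called, the 8 h fold was the higher one for 49.3% (1 h), 44.9% (24 h) and 45.1% (48 h) as reported, and for 54%, 50.3% and 51.8% with relative log expression scaling. Folds from this fit differ slightly from those above. Among the genes called at 1 h were Irf1 (4.86), Irf8 (5.40) and Igtp (9.24), whose log2 folds at 8 h were 5.54, 7.37 and 12.97. The difference between these hours was called for Irf1 and Irf8 and not for Igtp (edgeR, adjusted p = 0.119). B2m had 0.65 at 1 h, 5.81 at 8 h, 7.22 at 24 h and 7.07 at 48 h.

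**Figure D5:**
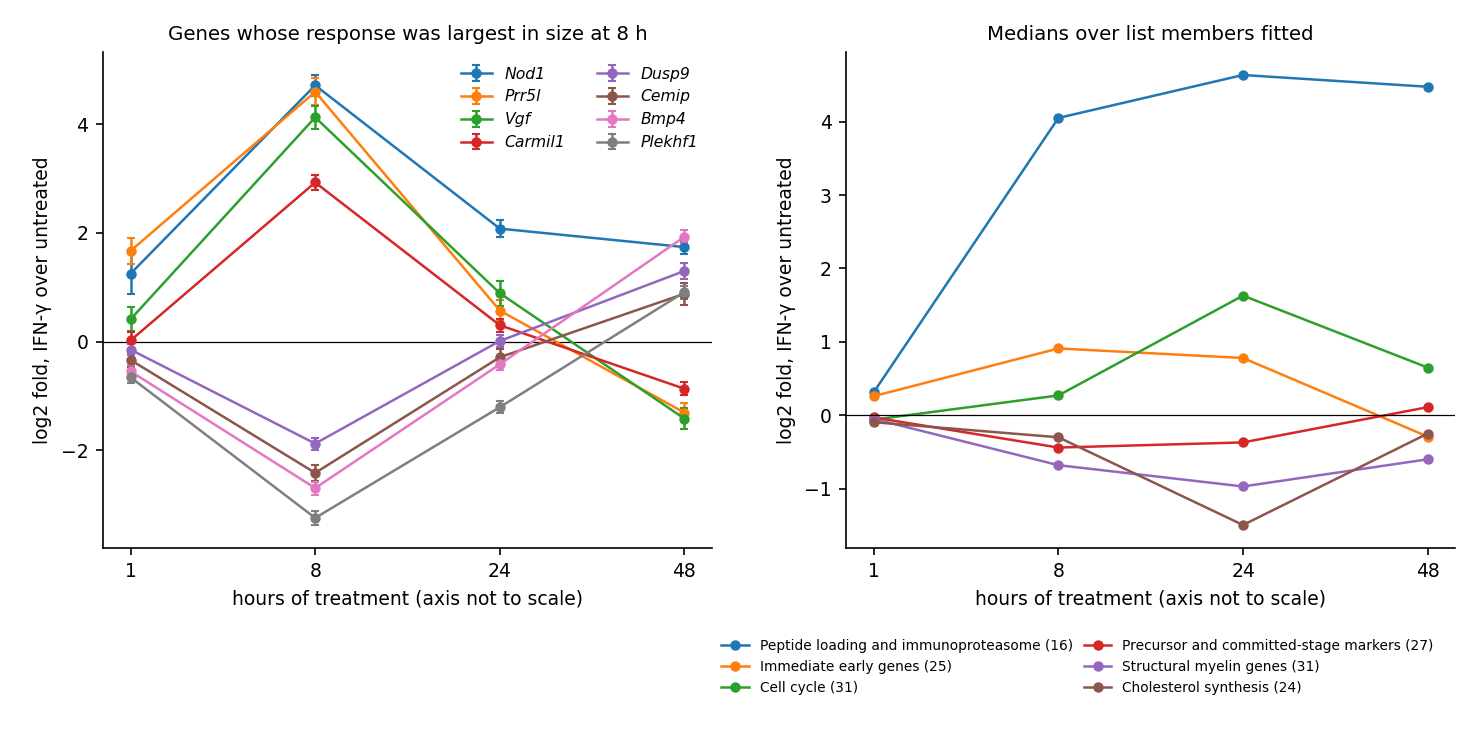
Log2 fold of IFN-γ over untreated cells at 1, 8, 24 and 48 h from the fit of 40 libraries, with an axis of hours that is not to scale. The left panel shows the 8 genes named for a response largest in size at 8 h, with SE bars, 4 higher and 4 lower with IFN-γ at 8 h; the right panel shows medians over the members fitted of 6 lists, where peptide loading rose to 4.05 at 8 h and stayed high and cholesterol synthesis fell to -1.5 at 24 h.

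Most class I genes had larger folds at 24 h than at 8 h. Of 14 fitted, 12 had a larger fold at 8 h than at 1 h, and none had a larger and 9 a smaller fold at 8 h than at 24 h. Over all genes fitted the 8 h fold was higher than at 1 h for 12.5% and lower for 12.9%. Against 24 h these shares were 15.2% and 18.6%, and against 48 h 19.3% and 23.5%. Of 6 class II genes fitted, none had a larger and 3 a smaller fold at 8 h than at 24 h, among them H2-Eb1, which stood at 4.02 at 8 h, 6.69 at 24 h and 8.28 at 48 h. Of the 16 genes of peptide loading and the immunoproteasome, 3 had a higher and 3 a lower fold at 8 h than at 24 h. Both counts were near the shares over all genes, and 2 were lower with relative log expression scaling. Nlrc5, the transactivator of class I genes, had a larger fold at 8 h, 7.92, than at 24 h, 6.45 (edgeR, adjusted p of the difference 0.000383). Of 32 antiviral genes fitted, 24 had a larger fold at 8 h than at 1 h. Against 24 h, 2 had a larger and 7 a smaller fold at 8 h, the 7 being near the share over all genes. Immediate early genes had smaller responses by the end: of 28 fitted, 15 had a larger and none a smaller fold at 8 h than at 1 h, and 21 had a larger fold at 8 h than at 48 h and 1 a smaller one. Egr2 had log2 folds of 2.49, 5.68, 3.61 and 1.02 at the 4 hours.

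Several groups that had changed at 8 h had changed further by 24 h. All 24 cholesterol genes fitted were lower relative to untreated cells at 24 h than at 8 h. Of 31 cell cycle genes, 28 had a higher fold at 24 h than at 8 h and 1 a lower one, among them Mki67 with -0.10 at 8 h and 1.32 at 24 h. Of 33 structural myelin genes fitted, 17 had a higher fold at 8 h than at 24 h and 5 a lower one: Mbp had log2 folds of -0.06, -0.98, -2.26 and -1.54 at the 4 hours. These counts were the same with relative log expression scaling for the class I, cholesterol, cell cycle and myelin comparisons with 24 h, and that scaling moved the median difference of all genes by less than 0.1.

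For a smaller set the response was largest at 8 h. Of 10630 genes of at least 5 CPM, 504 (4.74%) were called at 8 h and against all 3 other hours with the largest response at 8 h, 234 of them higher (2.2%) and 270 lower (2.54%) with IFN-γ. With relative log expression scaling there were 478, of which 263 were higher and 215 lower, and 448 were shared. Nod1, a sensor of bacterial peptidoglycan, had log2 folds of 1.25, 4.72, 2.08 and 1.74 at 1, 8, 24 and 48 h, Prr5l had 1.67, 4.60, 0.57 and -1.31, and Vgf, a neuropeptide precursor, 0.41, 4.13, 0.89 and -1.42. Carmil1, a regulator of actin capping, stood at 2.93 at 8 h and -0.87 at 48 h. Bmp4 had -0.55, -2.70, -0.42 and 1.93, so it was below its control at 8 h and above it at 48 h. Plekhf1, Cemip and Dusp9 did likewise, with -3.25, -2.42 and -1.88 at 8 h and 0.91, 0.88 and 1.30 at 48 h. The untreated cells were differentiating meanwhile, and each fold is relative to the untreated cells of its own hour.

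Whether the response depended on Nrf2 genotype was tested as the difference of the responses in Nrf2 -/- and wild-type libraries. All wild-type libraries had low Xist and most Nrf2 -/- libraries high Xist, so genotype and sex were partly confounded. Leaving out untreated Nrf2 -/- replicate 3 left only high-Xist libraries among untreated Nrf2 -/- cells, while replicate 3 of the treated ones had low Xist. No gene was called (smallest adjusted p = 1; 269 of 14253 genes at an unadjusted p below 0.05), by edgeR or by DESeq2, and none was called without the library at odds with its label. Of the 6034 genes called in the pooled comparison, 6032 had the same sign in both genotypes. These genes were chosen by the pooled test on the same libraries, which nearly fixes like signs. That count therefore does not bear on a genotype difference. Mbp differed by -0.11 ± 0.25 on the log2 scale (Nrf2 -/- response minus wild-type response), Txnrd1 by 0.01 ± 0.08 and Hmox1 by 0 ± 0.17. Without untreated Nrf2 -/- replicate 3, the library at the wild-type Nfe2l2 level, these differences were -0.03 ± 0.27 for Mbp, 0 ± 0.08 for Txnrd1 and 0.04 ± 0.17 for Hmox1 (SE). With 2 wild-type libraries in each group, these errors bound what the comparison could see, and a missing call does not show that the responses were equal.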

How the data were processed

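Bulk RNA-seq libraries of total RNA were deposited as a table of gene counts and a table of transcript estimated counts. STAR, featureCounts, kallisto and edgeR are named without versions in the submitters' processing notes; genome build, annotation and strand are not stated there or in the labels. Of 39056 deposited gene entries, 38872 matched GENCODE M21. Counts were tested as deposited with edgeR 4.0.16 in R 4.3.3 (TMM scaling; filterByExpr, minimum count 10 and total 15; robust quasi-likelihood fit of genotype plus treatment; Benjamini-Hochberg threshold 0.05). The hour comparisons used group means of 40 libraries. Kallisto sums for the alternative analysis were rounded to whole counts.

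No label gives separate cultures or animals, so p-values measure the spread between libraries, which may be technical. Replicate pairs differed beyond sampling noise (chi-square per degree of freedom 13.72 to 348.75), so none was counted as a duplicate. The scripts were tested on simulated data.

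Genes named were a fixed panel; up to 4 called members of each list in its commoner direction and 2 in the other, of at least 5 CPM; the 12 highest and 12 lowest called protein-coding genes outside the lists, without overlap; and 8 genes whose response peaked at 8 h. Further members were named to describe a list, and some genes that the rule named are not reported here. Members and lists were chosen with earlier results of these data known. List sizes count the genes present in the table. Percentages of a list are of the genes listed, while shares over all genes are of the genes tested. The percentages of a list with untested members are therefore lower than they would be over its tested members. Alternatives covered scaling, filtering, genotype assignment, libraries left out, DESeq2 1.42.0 and kallisto sums.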

Additional observations from a re-analysis of the deposited data

Results flagged for a closer look

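In 379 groups of 5 libraries tested for 1 library far from the others, 20 stood out, where chance gives about 1 in 20, and 12 of the 20 came from untreated Nrf2 -/- replicate 3, the library whose Nfe2l2 level was that of wild type. In CPM, that library had 438.6 for Myrf (206.9 to 248.6 in the other 4), 120.3 for Tcf7l2 (47.4 to 55.8), 104.8 for Kcnj10 (45.9 to 55.3), 80.2 for Cd47 (47.1 to 54.5), 158 for Kcna2 (110.5 to 124.2) and 102.6 for Gria3 (70.5 to 77.4). It also had 33.5 for Prox1 (18.6 to 21.8), 40.5 for Tnfrsf1a (29.7 to 32.3), 26.3 for Abcc4 (17.1 to 19.5) and 15.9 for Rinl (13.9 to 14.4), and was lowest for B2m at 12.5 (13.8 to 14.2) and Timp4 at 8.84 (10.4 to 10.6). Without it the log2 folds were -0.75 for Myrf, -0.83 for Tcf7l2, -0.60 for Kcnj10, 0.74 for Cd47, -0.78 for Kcna2, -0.43 for Gria3, 2.01 for Prox1, 1.30 for Tnfrsf1a and 0.74 for Abcc4, each with the same sign as with all 10 libraries.

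Untreated Nrf2 -/- replicate 2 stood out with 0.665 CPM for Gbp2 (0 to 0.0731 in the other 4), 0.435 for Iigp1 (0 to 0.0488), 50.1 for Tmem132b (56.2 to 57.7) and 1254.8 for Ugt8a (1419.3 to 1460.6). IFN-γ Nrf2 -/- replicate 1 stood out with 11.5 CPM for Nod1 (7.84 to 8.82) and 22.4 for Tnfaip3 (16.7 to 17.9). IFN-γ Nrf2 -/- replicate 2 did so with 55.3 CPM for Ccnd3 (47.8 to 48.9) and 466.3 for Txnrd1 (478.2 to 481.1).

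The response at 8 h differed from those at the other hours, by the test of the difference itself, for 4107 genes against 1 h, 5480 against 24 h and 6929 against 48 h. Among the genes named for this, the log2 difference of 8 h minus 1, 24 and 48 h was 3.47, 2.64 and 2.98 for Nod1, 2.93, 4.03 and 5.91 for Prr5l, 3.72, 3.24 and 5.55 for Vgf, and 2.91, 2.63 and 3.80 for Carmil1. It was -2.15, -2.28 and -4.63 for Bmp4, -2.59, -2.05 and -4.16 for Plekhf1, -2.08, -2.13 and -3.30 for Cemip, and -1.73, -1.89 and -3.18 for Dusp9.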

How the results depend on the processing

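The count of 6034 called genes ranged from 4051 (wild-type libraries alone, 2 against 2) to 6557 (group means of all 50 libraries) over the alternatives. It was 5078 without the 2 libraries of conflicting labels, 6305 without untreated Nrf2 -/- replicate 3, 5795 without all 3, 6124 with DESeq2 and 6010 with kallisto sums. Leaving out 1 library at a time gave 5425 to 6305. Genes past 2-fold numbered 823 to 886 with 1 library left out, and the hour differences 3420 to 4278 (1 h), 4772 to 5659 (24 h) and 6020 to 7446 (48 h). The 504 genes with the largest response at 8 h numbered 407 to 519 with 1 library left out and 415 to 519 over the other alternatives, which were chosen for this count after seeing the data. The larger part was lower as reported and higher with relative log expression scaling. It was also higher in some fits with libraries left out, as without the 2 libraries of conflicting labels (226 higher, 208 lower). Other such fits kept the reported side, as without untreated Nrf2 -/- replicate 3 (229 higher, 290 lower). The single members that rose or fell against their list (Calr, Ptpn11, Mavs, Edem1, Nr4a1, Klf10 and Ccng1) lost their calls in 9 to 16 of 22 alternatives, which moves the small counts of those lists. The genotype difference had 0 calls in each alternative run for it. Of 4596 comparisons of a named gene with an alternative, 4467 kept direction and side of the threshold, 119 lost the call, 6 gained it and 4 changed direction. Those 4 were all of Nfe2l2, whose log2 fold was 1.15 without untreated Nrf2 -/- replicate 3 (omitting the other libraries 1 at a time gave as low as -1.18, without untreated wild-type replicate 1), 1.19 without the 3 libraries of doubtful genotype and 1.22 in wild-type libraries alone. The fit without untreated Nrf2 -/- replicate 3 was entered 2 times, by itself and in the series with 1 library left out. It is therefore counted 2 times in these totals and among the 22 alternatives. Of 133 named genes past a log2 fold of 1, 1 (Tcf7l2) lost its call in any alternative. The count of 8 called transcripts was 0 without the 2 libraries of conflicting labels and 0 without all 3, designs too small to pass the adjustment, and 5 to 8 with 1 library left out; it was 5 without IFN-γ Nrf2 -/- replicate 3. No paired analysis was possible because the labels give no replicate number that treated and untreated libraries share. Depth limits the class II, chemokine and complement lists, where most members had too few counts to test.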
